A study of Mus musculus with 21 samples.

Results

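Myokines are proteins that muscle can release and that act on other organs or on the muscle itself. The transcripts described here encode 10 of them that have been linked to exercise: Fndc5, Metrnl, Il15, Il6, Lif, Bdnf, Gdf11, Gdf15, Fgf21 and Apln. They were found by gene symbol, and all 10 had a row among the 40853 genes of the count table. The RNA came from the medial belly of the gastrocnemius, a calf muscle of mainly fast fibers, of 21 C57BL/6NJ mice that entered the study at 10 weeks of age. The study describes the sequenced mice as female. There were 7 mice in each of 3 groups, with 1 library per mouse. Inactive mice lived in ordinary cages for 6 weeks. Active mice ran on a treadmill 5 days per week for 6 weeks, at about 70% of their maximal speed. Activity Reduction mice followed the same training for 4 weeks and then stopped for 2 weeks. All groups took graded maximal running tests, the Inactive group included, and muscle was collected 48 to 72 h after the last of these, following a fast of some hours in all groups. The libraries therefore hold resting muscle, not muscle sampled during or just after a run. The libraries held 38482455 to 59785132 reads counted on genes. The median depth was 53278181 for Inactive, 46532461 for Active and 49829192 for Activity Reduction mice. Markers of muscle fibers fixed for this purpose (8 genes) were abundant in every library, with a median sum of 144000 CPM (counts relative to the size of the library) in Inactive muscle, 153000 CPM in Active muscle and 150000 CPM in Activity Reduction muscle, and Myh4, the myosin of the fastest fibers, was the most abundant of them.

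The 10 transcripts encode proteins of several families. Fndc5 encodes a membrane protein of the fiber whose outer part can be shed as irisin, and Metrnl encodes meteorin-like, which is linked to the browning of fat. Il15, Il6 and Lif encode cytokines. IL-6 and LIF signal through the shared receptor chain gp130, and IL-15 signals through receptor chains that it shares with IL-2. Bdnf encodes a neurotrophin, made as a precursor that is cut to its mature form. Gdf11 and Gdf15 encode members of the TGF-beta superfamily; GDF11 is a close relative of myostatin, and GDF15 acts on the hindbrain through the receptor GFRAL. Fgf21 encodes a hormone best known from liver that is induced in muscle under mitochondrial stress, and Apln encodes apelin, the ligand of the receptor APJ. Bulk RNA cannot tell apart a change in the number of cells that make a transcript from a change in the amount per cell, and it does not measure the secreted protein.

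On GRCm39, with the GENCODE vM39 annotation, all 10 are protein-coding genes. Fndc5 lies on the plus strand of chr4:129030397-129041865. Gdf11 lies on the minus strand of chr10:128718164-128727747, and Il15 lies on the minus strand of chr8:83054226-83129874. Metrnl and Lif lie on the plus strand of chromosome 11, at chr11:121592370-121611770 and chr11:4207557-4222514. Apln is on the minus strand of chrX:47114019-47123775 and Bdnf on the plus strand of chr2:109505045-109557475. Gdf15 is on the minus strand of chr8:71082038-71091537, Il6 on the plus strand of chr5:30218112-30224979 and Fgf21 on the minus strand of chr7:45263301-45266963. Exons of 6 of these genes overlap those of another gene. Of the exon length, 18% is shared with Fut1 on the opposite strand for Fgf21, 17.3% with the opposite-strand RNA Gm34154 for Gdf15, and 10.6% with the opposite-strand gene Sarnp for Gdf11. For Fndc5, Bdnf and Il15 the longest such overlap, with an opposite-strand non-coding RNA that has no row in the count table, was 14%, 13.5% and 5.3%. The strand setting of the read counting is not given in the sources used here, so reads in those stretches cannot be assigned to 1 strand.

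The 10 transcripts covered a wide range of levels. To set genes side by side, counts were divided by size factors and by the merged exon length in kilobases (kb), and the mean was taken over the 21 libraries. Fndc5 had by far the highest level, at 966 normalized counts per kb, which placed it at percentile 93.2 of the 15006 tested genes with a length. Gdf11 followed with 158 and Il15 with 81.9 normalized counts per kb, at percentiles 69.1 and 54.7. Fndc5 was above Gdf11, Gdf11 above Il15 and Il15 above Metrnl in all 21 libraries, and the ranges of these neighbors did not overlap.

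Lower in the order the steps were smaller. Metrnl had a mean of 25.7, Apln of 15.8 and Bdnf of 10.7 normalized counts per kb, and although Metrnl was above Apln in 20 libraries and Apln above Bdnf in 18, their ranges overlapped. Before the division by length, Bdnf averaged above Apln, at 80.88 and 59.97 normalized counts. Gdf15 (2.4 normalized counts per kb), Lif (2.25) and Il6 (1.78) sat at the bottom of what was measured. Gdf15 was above Lif in only 10 of 21 libraries and Lif above Il6 in 12, so these neighbors were not separated beyond their spread. Fgf21 was last, at 0.469 normalized counts per kb, with 0 counts in 16 of the 21 libraries.

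**Figure D1:**
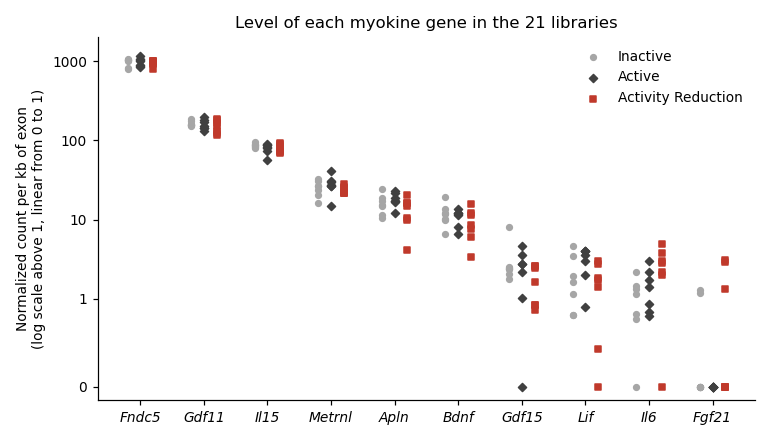
Normalized count per kb of exon (vertical axis, log scale above 1 and linear from 0 to 1) of each of the 10 myokine genes, with 1 symbol per library and the 3 groups side by side. Fndc5, Gdf11 and Il15 each occupy a range of their own, and Gdf15, Lif and Il6 share 1 range near the bottom.

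Of the 10 transcripts, 7 passed edgeR's filter on low counts and were tested: Fndc5, Metrnl, Il15, Lif, Bdnf, Gdf11 and Apln. Il6, Gdf15 and Fgf21 did not pass and were too low to judge. The boundary fell between Lif, with 217 counts summed over the 21 libraries and 10 or more counts in 10 of them, and Gdf15, with 118 counts and 10 or more in 2 libraries.

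None of the 7 tested transcripts passed the test of a difference between groups in any of the 3 comparisons. A transcript was called when its adjusted p-value was under 0.05 (edgeR's quasi-likelihood test, Benjamini-Hochberg adjustment over 16129 genes) and its log2 fold change was above 0.25 or below -0.25. In the comparison of Active with Inactive mice 0 of 7 were called, where 0.0% of all tested genes were. In the comparison of Activity Reduction with Inactive mice 0 of 7 were called, where 0.0124% of all genes were, and in the comparison of Activity Reduction with Active mice 0 of 7 were called, again against 0.0%. At an unadjusted edgeR p under 0.05 there were also 0 of 7 in each comparison, against 10.9%, 7.73% and 13.3% of all genes in the same order. DESeq2 gave an adjusted p-value to 5, 1 and 6 of the 10 transcripts in these comparisons and called 0, against 0.524%, 0.812% and 0.791% of the genes it adjusted. In 0 of 7 did the libraries of 2 groups separate without overlap, against 0.254%, 0.118% and 0.291% of all genes.

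The estimated changes were small for the abundant transcripts and poorly bounded for the scarce ones. Between Active and Inactive muscle 4 of the 7 had a higher and 3 a lower estimate, with a median log2 fold change of 0.04 beside 0.005 for all genes. Between Activity Reduction and Inactive muscle all 7 estimates were lower, with a median of -0.13 beside 0.006 for all genes. Between Activity Reduction and Active muscle 6 estimates were lower and 1 higher, with a median of -0.21 beside -0.001. These comparisons share groups of mice with each other, and none of the 7 estimates in any of them passed the test.

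**Figure D2:**
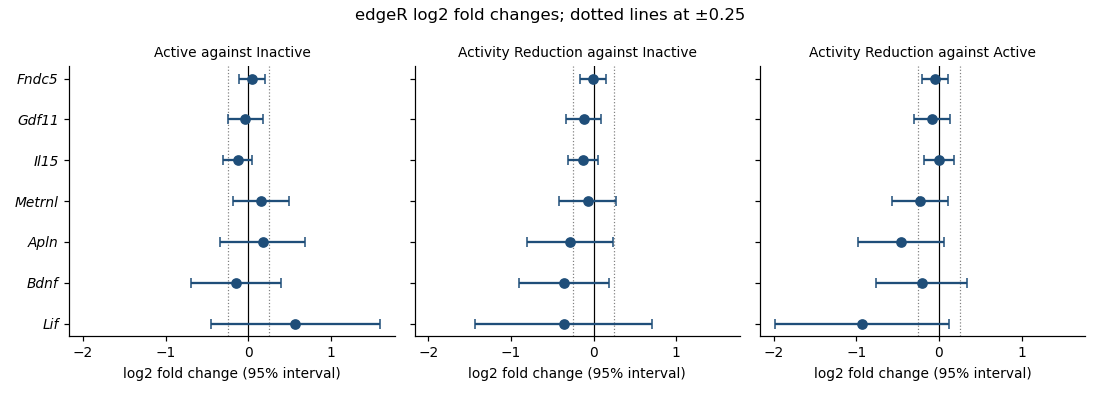
edgeR log2 fold changes (horizontal axis, points) with 95% intervals (bars) of the 7 tested myokine genes, ordered by level from top to bottom, in the 3 comparisons; the dotted lines mark ±0.25. The interval of Fndc5 stays between the dotted lines in each panel, that of Lif reaches from -1.98 to 0.12 in the comparison of Activity Reduction with Active mice, and all 21 intervals include 0.

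Fndc5, the precursor of irisin, was the most abundant and one of the least variable members. Its normalized count ranged from 3257 to 4379 in Inactive muscle (median 4226), from 3495 to 4833 in Active muscle (median 4210) and from 3301 to 4212 in Activity Reduction muscle (median 4071). The groups overlapped almost fully, and the 2 highest libraries were both Active. The means were 3983, 4081 and 3958 in the same order, with an SD of 11.3%, 12% and 8.14% of the mean (n = 7 each). The log2 fold change was 0.04 (95% interval -0.12 to 0.20) between Active and Inactive mice, -0.004 (-0.16 to 0.15) between Activity Reduction and Inactive mice and -0.05 (-0.21 to 0.11) between Activity Reduction and Active mice. With all 21 libraries and no covariate for liver transcripts, Fndc5 was the only tested member with intervals within 0.25 of 0 in all 3 comparisons. Read as percentages, the interval of the change in Active against Inactive muscle ran from -7.7% to 14.9%.

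The values of Fndc5 also moved with a known difference between libraries. Transcripts of 20 genes mainly expressed in liver, among them Alb (albumin), split the libraries into 8 with more (median sum 1620 CPM, range 724 to 2170) and 13 with fewer (median sum 252 CPM, range 152 to 331). Of the 20, 19 were counted in every library, and Mup20 was at 0 in 5. The 8 were 5 of the Active, 2 of the Activity Reduction and 1 of the Inactive libraries. They were also the first 8 in the order of the deposited samples, and whether that order reflects a batch was not tested. Fndc5 averaged 3724 ± 407 normalized counts (SD, n = 8) where liver transcripts were more abundant and 4182 ± 305.6 (SD, n = 13) where they were fewer. Il15 and Bdnf were lower in the same 8 libraries, at 530.5 ± 66.64 against 591.6 ± 52.9 and at 69.67 ± 25.05 against 87.78 ± 27.32 (SD, n = 8 and 13). With this division as a covariate in edgeR, Fndc5 had a log2 fold change of 0.18 between Active and Inactive mice (95% interval 0.05 to 0.32, unadjusted p = 0.0105, adjusted p = 0.465) and of -0.15 between Activity Reduction and Active mice (-0.28 to -0.02, unadjusted p = 0.023, adjusted p = 0.367). Both intervals then excluded 0 and reached past 0.25 on 1 side, unlike those of all 21 libraries without the covariate. Within the 13 libraries the mean was 4104 ± 343.4 in 6 Inactive, 4570 ± 373.1 in 2 Active and 4120 ± 94.89 in 5 Activity Reduction mice. The edgeR interval there ran from 0.0 to 0.32 for Active against Inactive mice. For Activity Reduction against Active mice it ran from -0.32 to 0.009. None of these passed after adjustment, the set of 13 holds only 2 Active mice, and the part of the liver transcripts in the result was not tested further.

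**Figure D3:**
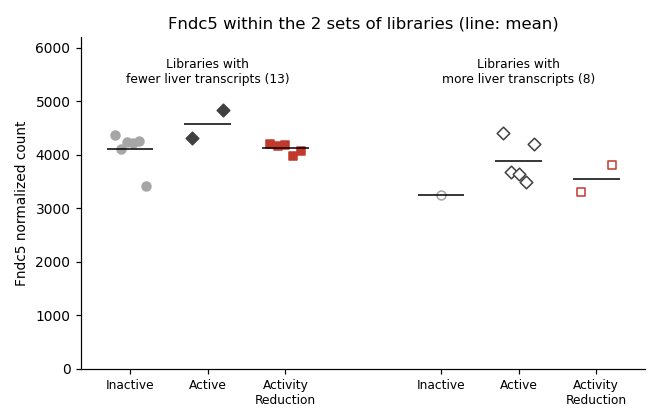
Normalized count of Fndc5 (vertical axis, from 0) in each mouse, by group, within the 13 libraries with fewer liver transcripts (filled) and the 8 with more (open); the lines are means. Both Active mice among the 13 lie above all 5 Activity Reduction mice, whereas in the full set of 21 mice the groups overlap. Groups of 5 and 2 mice can be divided in only 21 ways.

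Metrnl, which encodes the secreted protein meteorin-like, was detected in every library with 71 to 242 counts. Normalized counts ranged from 105 to 206.6 in Inactive muscle (median 168.5), from 94.44 to 259.8 in Active muscle (median 172.7) and from 137.4 to 182.4 in Activity Reduction muscle (median 146.8). The lowest and the highest libraries were both Active. The group means were 161.7 ± 35.96, 179.1 ± 48.89 and 153.2 ± 17.25 (SD, n = 7 each). The log2 fold change was 0.16 (95% interval -0.18 to 0.50) between Active and Inactive mice and -0.23 (-0.57 to 0.11) between Activity Reduction and Active mice, with edgeR adjusted p-values of 0.771 and 0.565. Among mice whose libraries held fewer liver transcripts these estimates were 0.09 and -0.10.

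Among the cytokines Il15 was measured best. Its normalized count ranged from 556.6 to 658.2 in Inactive muscle (median 609.6), from 390.5 to 615.5 in Active muscle (median 579.8) and from 476.9 to 636.6 in Activity Reduction muscle (median 530.7). The Inactive libraries were the most alike, with a coefficient of variation of 5.57% beside 14.4% and 11.8%. Both trained groups averaged slightly lower than the Inactive group, at 549.5 ± 79.34 and 551.6 ± 64.95 against 603.8 ± 33.65 (SD, n = 7 each). The log2 fold change was -0.13 in both comparisons with the Inactive group (SE 0.0865 and 0.0863), which share the same Inactive mice, and edgeR's adjusted p-values were 0.607 and 0.8. The estimate for Active against Inactive mice was -0.05 when the liver division was a covariate and -0.02 within the 13 libraries with fewer liver transcripts, where there are 2 Active mice, while that for Activity Reduction against Inactive mice was -0.11 and -0.12. Between Activity Reduction and Active mice it was 0.003, with an interval from -0.18 to 0.18. With CPM in place of size factors, the exact permutation test of Activity Reduction against Inactive mice (7 against 7, two-sided) gave p = 0.035, where it gave p = 0.0839 with size factors. Scaling by library totals, as CPM does, moved the median log2 fold change of all genes by -0.0442 in that comparison.

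Lif, which encodes leukemia inhibitory factor, was close to the limit of detection. It passed the filter through its Active libraries: 5 of 7 Active, 3 of 7 Inactive and 2 of 7 Activity Reduction libraries had 10 or more counts. Its estimates against the Active group therefore come from a transcript that was tested because that group was high. In Inactive muscle the 7 libraries had between 3.745 and 21.3 normalized counts (median 7.549), in Active muscle between 4.176 and 18.66 (median 16.48) and in Activity Reduction muscle between 0 and 13.88 (median 7.892). In Active muscle 4 mice lay between 16.48 and 18.66, above every Activity Reduction mouse, whereas the lowest Active mouse lay below most Activity Reduction mice. The means were 9.516 ± 6.7, 14.19 ± 5.613 and 7.331 ± 5.119 normalized counts (SD, n = 7 each).

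The mean of Lif in Activity Reduction muscle was 0.517 times that in Active muscle (exact permutation test over all 3432 divisions of 14 mice, two-sided, unadjusted p = 0.0373). This was 1 of 30 such tests, of 10 transcripts in 3 comparisons, and 2 of the 30 gave a p under 0.05. That is near the share that a level of 0.05 gives by chance, and the share of all genes under 0.05 in this test was not computed. In edgeR the log2 fold change was -0.93 (SE 0.509, 95% interval -1.98 to 0.12, adjusted p = 0.441). It did not pass, and it also comes from a transcript that passed the filter through its Active libraries. The exact p depended on single mice: leaving out each of the 14 in turn gave values from 0.00932 to 0.0758, and 9 of the 14 omissions gave a p over 0.05. Among the 13 libraries with fewer liver transcripts the mean was 17.57 in 2 Active and 8.291 in 5 Activity Reduction mice, a log2 fold change of -1.07, and the exact permutation p was 0.143, where 0.0476 is the smallest that 5 mice against 2 can give. When edgeR included the liver division, the log2 fold change was -1.13 (unadjusted p = 0.0475, adjusted p = 0.459).

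Il6, the cytokine most often named as an exercise factor, had 0 to 12 counts per library and did not pass the filter. By replicate 1 to 7, the Inactive mice had 6, 4, 2, 0, 2, 3 and 4 counts, the Active mice 2, 4, 4, 3, 2, 2 and 7, and the Activity Reduction mice 7, 5, 8, 0, 10, 5 and 12. In Activity Reduction muscle 6 of 7 mice had at least 5 counts, but the remaining mouse had 0 and the groups overlapped. Summed over the 7 libraries there were 21, 24 and 47 counts, or 0.0558, 0.0764 and 0.131 CPM of the pooled totals. The mean normalized count was 2.699 ± 1.662 in Inactive, 3.791 ± 1.967 in Active and 6.494 ± 3.725 in Activity Reduction muscle (SD, n = 7 each).

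The difference of Il6 between Activity Reduction and Inactive mice had an unadjusted p of 0.0309 in the exact permutation test (two-sided), the other of the 2 among 30 under 0.05. When edgeR was run with no filter on low counts, the log2 fold change was 1.22 (SE 0.585) with an adjusted p of 0.581, and DESeq2 gave an unadjusted p of 0.0385 and no adjusted one. Leaving out 1 mouse at a time gave exact p-values from 0.00233 to 0.0606, and 4 of 14 omissions, those of Activity Reduction mice 3, 5 and 7 and of Inactive mouse 4, gave a p over 0.05. Counts this low may also not be of independent molecules: of 44 values above 0 for Il6, Gdf15 and Fgf21, 36 were even numbers, as were 69.4% of all values from 1 to 10 in the table beside 50.4% of values from 1000 to 2000. The cause of this excess was not tested. Macrophages, which can also make IL-6, had 8 markers that summed to 26.5 ± 6.5 CPM in Inactive, 32.5 ± 5.76 CPM in Active and 24.1 ± 6.52 CPM in Activity Reduction muscle (SD, n = 7 each), none of them at 0, and their part in the Il6 counts was not tested.

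Bdnf, the neurotrophin, was detected in every library with 26 to 146 counts. In normalized counts it ranged from 49.81 to 146.2 in Inactive muscle (median 89.89), from 50.11 to 102 in Active muscle (median 87.79) and from 25.65 to 120.4 in Activity Reduction muscle (median 64.45). The lowest library was an Activity Reduction mouse and the highest an Inactive mouse, with broad overlap between them. The means were 90.71 ± 29.88, 81.54 ± 18.81 and 70.4 ± 31.74 (SD, n = 7 each). The lowest estimate, a log2 fold change of -0.36 between Activity Reduction and Inactive mice, had an interval from -0.90 to 0.19 and an edgeR adjusted p of 0.815 (from -46.5% to 13.9%). It was -0.13 among mice whose libraries held fewer liver transcripts.

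Of the TGF-beta family members, Gdf11 was well measured, with 524 to 844 counts per library. Its normalized count ranged from 645.7 to 796.4 in Inactive muscle (median 668.6), from 557.7 to 828.7 in Active muscle (median 634.5) and from 490.1 to 779.3 in Activity Reduction muscle (median 648.5). The means were 693 ± 54.99, 672.9 ± 99.39 and 636.3 ± 116.3 (SD, n = 7 each), and the Inactive mice were again the most alike. The estimate furthest from 0, a log2 fold change of -0.12 between Activity Reduction and Inactive mice, had an interval from -0.33 to 0.10 (edgeR adjusted p = 0.85). Among mice whose libraries held fewer liver transcripts, the log2 fold change between Active and Inactive mice was -0.27 (95% interval -0.56 to 0.02, edgeR adjusted p = 0.84; 2 against 6 mice), where it was -0.04 in all libraries.

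Gdf15, a stress-induced cytokine, was too low to judge. The Inactive mice had 6, 22, 4, 5, 6, 6 and 6 counts, the Active mice 0, 6, 10, 2, 5, 6 and 6, and the Activity Reduction mice 6, 2, 4, 2, 6, 2 and 6. A single Inactive mouse stood far above all others with 22 counts. The other 6 Inactive mice had 4 to 6 counts, within the 0 to 10 of the Active mice and overlapping the 2 to 6 of the Activity Reduction mice. The sums were 55, 35 and 28 counts. The exact permutation test of Activity Reduction against Inactive mice gave an unadjusted p of 0.0763 (two-sided). Gfral, which encodes the receptor of GDF15 and is known from the brainstem, had 0 counts in all 21 libraries.

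Fgf21 was the scarcest transcript. It had 4 counts in the Inactive group, in 2 mice, 0 counts in all 7 Active libraries and 10 counts in the Activity Reduction group, in 3 mice with 4, 4 and 2. The 0 of the Active group allows a level of up to 0.00954 CPM over the pooled group, taking 3 counts as the limit, and the pooled levels of the other groups were 0.0106 and 0.0278 CPM. Such limits cover counting error only and take the counts as independent. Every Fgf21 count above 0 was 2 or 4, and the excess of even counts noted for Il6 means that this may not hold. The exact permutation test gave a two-sided p of 0.192 for Activity Reduction against Active mice, edgeR with no filter on low counts gave an adjusted p of 0.362, and the overlap with Fut1 noted above could add or hide reads at this level.

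**Figure D4:**
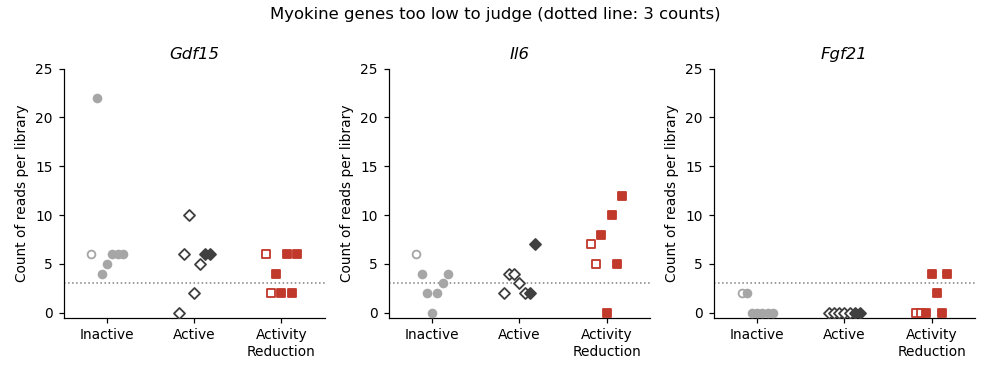
Counts per library (vertical axis, not normalized) of Gdf15, Il6 and Fgf21 in each mouse of the 3 groups; open symbols are the 8 libraries with more liver transcripts, and the dotted line marks 3 counts. A single Inactive mouse has 22 counts of Gdf15, 6 of 7 Activity Reduction mice have 5 or more counts of Il6, and all 7 Active mice have 0 counts of Fgf21.

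Apln, which encodes apelin, was detected in every library with 17 to 114 counts. After normalization Apln ranged from 40.05 to 93.38 in Inactive muscle (median 58.71), from 46.29 to 87.07 in Active muscle (median 65.52) and from 15.57 to 77.93 in Activity Reduction muscle (median 56.9). All 7 Active mice lay above 46, whereas 3 of 7 Activity Reduction mice lay below 40, and the groups overlapped above that. The means were 61.19 ± 18.14, 68.66 ± 13.33 and 50.06 ± 20.57 (SD, n = 7 each). Between Activity Reduction and Active mice the log2 fold change was -0.46 (SE 0.252, 95% interval -0.98 to 0.06), with an edgeR adjusted p of 0.443. Among mice whose libraries held fewer liver transcripts it was -0.78 (edgeR adjusted p = 0.981, 5 against 2 mice). The exact permutation test (7 against 7, two-sided) gave an unadjusted p of 0.0682, and p = 0.0396 with CPM in place of size factors. Scaling by library totals, as CPM does, moved the median log2 fold change of all genes by -0.0386 in this comparison.

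Apelin is a product of endothelial cells as well as of muscle, and the estimates of endothelial markers had the same sign as that of Apln, although edgeR called 0 of them. Of 8 markers, 8 had lower estimates in Activity Reduction than in Active muscle. Of these, 3 had an unadjusted edgeR p under 0.05, beside 13.3% of all genes. DESeq2 called 1 of the 8, beside 0.791% of the genes it adjusted. Their sum was 214 ± 12.0 CPM in Activity Reduction and 247 ± 20.8 CPM in Active muscle (SD, n = 7 each), and their most abundant gene was Cdh5, an adhesion molecule of vessels. All 8 were counted in every library. All 6 fibroblast markers also had lower estimates, with sums of 116 ± 10.2 and 165 ± 34.3 CPM. Of these 6, 5 had an unadjusted edgeR p under 0.05, beside the same 13.3% of all genes. Lower estimates were also found for 7 of 8 macrophage and 5 of 5 adipocyte markers, with median log2 fold changes of -0.40 and -0.39. Of the macrophage markers 2 had an unadjusted edgeR p under 0.05 and DESeq2 called 1, beside the same 13.3% and 0.791%. Of the adipocyte markers 0 had an unadjusted edgeR p under 0.05. Of the other marker lists, 20 of 20 liver markers had lower estimates (median -0.92) and 4 of 4 satellite cell markers had higher ones. Of 5 Schwann cell markers 3 were higher and 2 lower, and of 8 muscle fiber markers 3 were higher and 5 lower. The part of these cell types in the values of Apln was not tested.

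**Figure D5:**
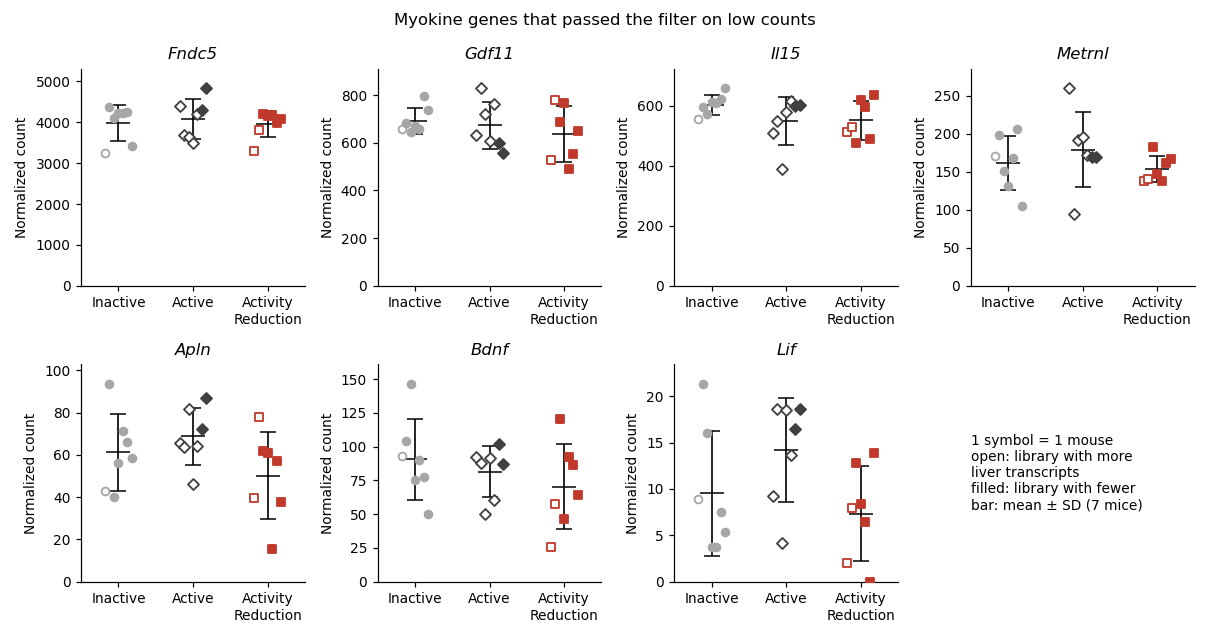
Normalized counts (vertical axes, each from 0) of the 7 tested myokine genes in each mouse of the 3 groups, with the mean ± SD of 7 mice; open symbols are the 8 libraries with more liver transcripts and filled symbols the 13 with fewer. The groups overlap in all 7 panels, and the spread relative to the mean broadly widens from Fndc5 to Lif.

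The spread between mice was broadly wider at lower levels. Over the 21 libraries the coefficient of variation was 10.2% for Fndc5, 11.3% for Il15, 13.8% for Gdf11 and 22.0% for Metrnl. It was 30.8% for Apln, 33.8% for Bdnf and 60.7% for Lif. The members did not vary as a block: Pearson's r between their log2 CPM values, over 21 libraries that share the 3 groups and the liver division, ran from -0.26 (Metrnl with Il15) to 0.53 (Gdf11 with Apln).

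For each tested member the genes whose pattern over the 21 libraries was most like it were also looked up, by Pearson's r of log2 CPM. Fndc5 was most like Mb (r = 0.738, Spearman's rho 0.527), which encodes myoglobin, and Ckmt2 (r = 0.735), the mitochondrial creatine kinase of muscle; within the liver division r was 0.727 and 0.709. Metrnl was most like Iglon5 (r = 0.77) and Tcf15 (r = 0.758), and Il15 most like 6030458C11Rik (r = 0.801) and Timm21 (r = 0.796), which encodes a part of the mitochondrial import machinery. Bdnf was most like Gm17251 (r = 0.814) and Kcnip2 (r = 0.791), Gdf11 most like Steap3 (r = 0.786) and Kank1 (r = 0.769), Apln most like Plekha7 (r = 0.774) and Zfp469 (r = 0.741), and Lif most like Gm16206 (r = 0.771) and Oma1 (r = 0.724). These are the highest values of r among all tested genes and are given as a description. Spearman's rho of the same pairs ran from 0.527 (Fndc5 with Mb) to 0.799 (Bdnf with Gm17251). It was 0.547 for Timm21, 0.569 for Oma1, 0.59 for Kcnip2 and 0.596 for Tcf15.

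The receptors of these myokines ranged from absent to abundant, and 12 of 21 lay above the level of Metrnl per kb. Of 21 receptor genes 20 were tested and 0 were called by edgeR or DESeq2 in any comparison. At an unadjusted edgeR p under 0.05, 1 was higher and 1 lower in Active than in Inactive muscle, 1 higher and 2 lower in Activity Reduction than in Inactive muscle, and 2 higher and 1 lower in Activity Reduction than in Active muscle, beside 10.9%, 7.73% and 13.3% of all genes in these comparisons. Per kb, Sort1 had a mean of 604 and Il6st, which encodes gp130, of 595 normalized counts, and Acvr1b, a type I receptor of GDF11 and myostatin, reached 1100. Klb, the co-receptor of FGF21, had 3.99 normalized counts per kb, whereas Fgfr1, the receptor it assists, had 263. Among the IL-15 receptor chains, Il15ra, the specific one, had 203 normalized counts per kb and the shared chain Il2rb had 1.79. The BDNF receptors Ntrk2 and Ngfr had 5.47 and 18.6 normalized counts per kb, and Il6ra, the specific receptor of IL-6, had 23.7. The order of Ntrk2 and Ngfr depends on the merged exon length. Before the division by length, Ntrk2 had the higher mean in Inactive muscle, at 150.6 normalized counts beside 61.1 for Ngfr.

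Sort1, which encodes sortilin, a sorting receptor that binds the BDNF precursor, had the smallest unadjusted p of the receptors in both comparisons with Inactive mice. Its normalized count ranged from 5075 to 6177 in Inactive muscle (median 5381), from 4356 to 5093 in Active muscle (median 4484) and from 4097 to 5009 in Activity Reduction muscle (median 4791). Every Activity Reduction mouse lay below every Inactive mouse, whereas the Active and Inactive ranges just overlapped. Activity Reduction and Inactive libraries separated without overlap in 0.118% of all genes. The log2 fold change was -0.24 (SE 0.0528, edgeR adjusted p = 0.159) in Active and -0.22 (SE 0.0527, edgeR adjusted p = 0.201) in Activity Reduction against Inactive mice, which passed neither the adjusted threshold nor the 0.25 threshold.

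The other receptors singled out by their p-values were Ntrk2, Acvr1b and Lifr. Ntrk2, the receptor of mature BDNF, averaged 150.6 ± 30.51 normalized counts in Inactive, 200 ± 69.62 in Active and 140.5 ± 30.4 in Activity Reduction muscle (SD, n = 7 each), with a log2 fold change of 0.42 for Active against Inactive and -0.51 for Activity Reduction against Active mice (edgeR adjusted p = 0.436 and 0.248). Acvr1b averaged 5998 ± 890.4 in Activity Reduction and 4727 ± 769 in Active muscle (log2 fold change 0.34, edgeR adjusted p = 0.302). Lifr, the receptor of LIF, averaged 2338 ± 187.5 in Activity Reduction and 2574 ± 142.8 in Inactive muscle (log2 fold change -0.13, edgeR adjusted p = 0.64). None of these passed.

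The 12 genes that process or block these proteins were all tested, and 0 were called by either tool. In Active against Inactive muscle 11 had higher estimates, with a median log2 fold change of 0.11 beside 0.005 for all genes, and 3 of them had an unadjusted edgeR p under 0.05, beside 10.9% of all genes. In Activity Reduction against Active muscle 7 had lower estimates and 4 of these had a p under 0.05, beside 13.3% of all genes, and in Activity Reduction against Inactive muscle 0 had, beside 7.73%. Bmp1, a protease that frees GDF11 and myostatin from their propeptides, averaged 813.8 ± 122.9 normalized counts in Active and 657.7 ± 91.97 in Inactive muscle (log2 fold change 0.31, edgeR adjusted p = 0.263). The proprotein convertase Pcsk5 averaged 61.47 ± 12.77 and 38.95 ± 12.25 (log2 fold change 0.66, edgeR adjusted p = 0.291). The related convertase Pcsk6 and Fst, which encodes the activin and myostatin inhibitor follistatin, had log2 fold changes of -0.64 and -0.55 in Activity Reduction against Active mice (edgeR adjusted p = 0.154 and 0.173). Furin, the best known convertase, and Wfikkn2, an inhibitor of GDF11, had estimates of 0.10 and 0.14 in Activity Reduction against Inactive mice. In Active against Inactive muscle 6 of 8 endothelial, 6 of 6 fibroblast, 7 of 8 macrophage, 5 of 5 Schwann cell and 20 of 20 liver markers (median 1.22) also had higher estimates. So did 5 of 8 muscle fiber, 3 of 5 adipocyte and 1 of 4 satellite cell markers, and the rest of these lists had lower ones. The estimates for Activity Reduction against Active muscle are given above, and the part of these cell types here was not tested.

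Of the regulators and response genes of myokine expression all 18 were tested and 0 were called by edgeR or DESeq2. At an unadjusted edgeR p under 0.05 there were 1 lower in Active against Inactive, 3 higher in Activity Reduction against Inactive and 2 higher in Activity Reduction against Active muscle, beside the same 10.9%, 7.73% and 13.3% of all genes. Ppargc1a, the coactivator PGC-1alpha that is known to induce Fndc5, averaged 1649 ± 88.27 normalized counts in Inactive, 1630 ± 99.13 in Active and 1811 ± 241.6 in Activity Reduction muscle (log2 fold change 0.15 for Activity Reduction against Active, edgeR adjusted p = 0.341). Its partner Esrra averaged 4840 ± 288.1, 5270 ± 391.8 and 5617 ± 667.7 (log2 fold change 0.22 for Activity Reduction against Inactive, edgeR adjusted p = 0.344). Chac1, a target of the stress factor ATF4, which also drives Gdf15 and Fgf21, averaged 2350 ± 700.5 in Inactive and 1466 ± 323.5 in Active muscle (log2 fold change -0.67, edgeR adjusted p = 0.329). Fos, an immediate early gene, had a log2 fold change of 1.63 in Activity Reduction against Inactive mice (edgeR adjusted p = 0.578), but its median was 97.18 in Activity Reduction and 94.57 in Inactive muscle, and 1 Activity Reduction mouse with 1873 normalized counts set the mean.

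Of 22 other genes for proteins that muscle secretes, 17 were tested; Il7, Il10, Il13, Cxcl1 and Apela were too low. edgeR called 0, and at an unadjusted p under 0.05 there were 2 higher in Active against Inactive muscle, 1 higher and 1 lower in Activity Reduction against Inactive muscle, and 6 lower in Activity Reduction against Active muscle, beside 10.9%, 7.73% and 13.3% of all genes. DESeq2 called 1 of them, Ostn, in both comparisons with Activity Reduction mice. The study, with DESeq2 on the same mice, had already reported lower Ostn in Activity Reduction muscle than in both other groups. Ostn, which encodes musclin, averaged 2954 ± 470.3 normalized counts in Inactive, 2741 ± 140.5 in Active and 2041 ± 436 in Activity Reduction muscle (SD, n = 7 each). Its log2 fold change was -0.53 against Inactive and -0.43 against Active mice, with adjusted p-values of 0.134 and 0.115 by edgeR and 0.000231 and 0.013 by DESeq2. Per kb it stood at 938 normalized counts, close to the 966 of Fndc5.

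Metrn, the paralog of Metrnl, averaged 847.2 ± 53.92 normalized counts in Inactive and 1006 ± 150.4 in Activity Reduction muscle (log2 fold change 0.25, edgeR adjusted p = 0.414), whereas Metrnl had an estimate of -0.07 in the same comparison; the difference between the paralogs was not tested. Igf1, the growth factor, averaged 494.1 ± 184.9 in Active and 338.3 ± 106.7 in Inactive muscle (log2 fold change 0.55, edgeR adjusted p = 0.436). Fstl1, a follistatin-like glycoprotein, averaged 1284 ± 194.7 in Inactive, 1536 ± 278 in Active and 1216 ± 139.8 in Activity Reduction muscle, with log2 fold changes of 0.27 for Active against Inactive and -0.34 for Activity Reduction against Active mice (edgeR adjusted p = 0.386 and 0.18). Fibroblasts express Fstl1 and Igf1 too, and the 6 fibroblast markers summed to 134 ± 26.2 CPM in Inactive, 165 ± 34.3 CPM in Active and 116 ± 10.2 CPM in Activity Reduction muscle (SD, n = 7 each); their part in these values was not tested.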

How the data were processed

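The deposited values are counts of reads on genes, made by the authors from poly(A)-selected libraries; per the labels' processing notes, fastp, STAR, featureCounts and DESeq2 were used with GRCm39. The versions, the annotation release and the strand setting are not given in the sources used here. A second deposited file, whose name says normalized, repeated all 857913 values of the first and was not used. Normalized counts here are counts divided by DESeq2 size factors over the 21 libraries.

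Counts were fitted in 1 edgeR 4.0.16 quasi-likelihood model of the 3 groups (R 4.3.3) with TMM normalization and edgeR's filter on low counts by group. Single members, including those under the filter, were compared by exact permutation tests of mean normalized counts, whose smallest possible p is 0.000583 for 7 against 7 mice. DESeq2 1.42.0 and 7 other alternatives to the edgeR model were run. The edgeR step was tested on simulated data. Libraries were divided by liver transcripts at the widest gap in their mean log2 CPM (prior count of 2). Exon lengths and positions are from GENCODE vM39, and 93.0% of the tested genes had a length.

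Named were all 10 members, the 2 genes per list and comparison with the smallest unadjusted p, and the 2 genes most like each tested member; receptors and processing genes whose level per kb is given, and Gfral, were named after their values were seen. The members and gene lists were chosen with earlier results of these data known. Mice were separate animals, and replicate numbers paired none of them. Nothing in the sources used here gives extraction or sequencing batches.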

Additional observations from a re-analysis of the deposited data

Results flagged for a closer look

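In the Inactive group, replicate 2 had 18.02 normalized counts of Gdf15 (22 counts), far from the other 6 Inactive mice, which had 4 to 6 counts. Its gap to the next mouse was 0.882 of the range of the group, over Dixon's 95% critical value for 7 samples. It was 1 of 30 groups examined (10 transcripts in 3 groups), and chance gives about 1 in 20.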

How the results depend on the processing

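The number of members called was 0 in all 3 comparisons under all 8 alternatives, and of 167 recomputed log2 fold changes 158 kept their direction and 0 were called; 8 crossed 0.25 in size. Those that turned direction lay between -0.15 and 0.12 before and after. With the liver division as a covariate, the log2 fold change was 0.0875 for Bdnf (Active against Inactive), 0.0315 for Fndc5 (Activity Reduction against Inactive) and -0.0551 for Il15 (Activity Reduction against Active). Within the 13 libraries with fewer liver transcripts these were 0.0712, 0.0046 and -0.1011, that of Gdf11 (Activity Reduction against Active) was 0.1187, and the exact permutation p-values were 0.821, 0.978, 0.714 and 0.619. For Il15 in the latter comparison, scaling by library totals gave -0.0349 (exact p = 0.723 with CPM) and a fit of only the 2 groups -0.003. Library totals moved the median of all genes by -0.0442 (against Inactive) and -0.0386 (against Active) in the Activity Reduction comparisons. Lif could not be fitted between Activity Reduction and Inactive mice alone, since it failed the filter there. The cause of the turns was not tested.

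With size factors replaced by CPM, the exact p was 0.035 for Il15 (Activity Reduction against Inactive) and 0.0396 for Apln (Activity Reduction against Active); with fewer-liver libraries alone it was 0.0476 for Fndc5 and 0.143 for Lif (Activity Reduction against Active), where 0.0476 is the smallest p that 5 against 2 mice can give. Leaving out 1 mouse in turn, an alternative added after seeing the data, gave exact p-values from 0.00233 to 0.0606 for Il6 and from 0.00932 to 0.0758 for Lif. Those for Lif went over 0.05 without Active mouse 2, 4, 5, 6 or 7 or Activity Reduction mouse 1, 2, 5 or 6.

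The replicate numbers did not pair the mice: libraries with the same number correlated from -0.223 to 0.471 in their deviations, over 0.1 in 7 of 21 pairs. In 4 of the 21 pairs the best match was the library of the same number. With a replicate block in edgeR, 0 members were called in each comparison and 0, 4 and 0 of all genes were, beside 0, 2 and 0 without it; Il15 had a log2 fold change of -0.1392 (unadjusted p = 0.0478) in Active against Inactive mice.

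Depth limits Il6, Gdf15 and Fgf21, and Lif in part: 3 counts in the smallest Active library correspond to 0.078 CPM. The p-values measure the spread between 7 mice per group where all libraries of the groups were used. Those within the libraries with fewer liver transcripts, or with 1 mouse left out, rest on fewer mice. The transcripts were measured at rest in 1 muscle.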
